A study of Mus musculus with 12 samples.

Results

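Matrix metalloproteinases (MMPs), ADAMTS proteases, ADAMTS-like proteins, tissue inhibitors of metalloproteinases (TIMPs) and the membrane-anchored inhibitor Reck were followed in lung and heart RNA. The set was taken by gene symbol: every Mmp, Adamts, Adamtsl and Timp gene with a number, and Reck, which gave 52 of the 55679 genes in the gene table. It held 23 MMPs, 19 ADAMTS proteases, 5 ADAMTS-like proteins, 4 TIMPs and Reck. The rule itself used no measured value, but the set was chosen with earlier results of these data known.

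MMPs are secreted or membrane-bound zinc proteases that cut collagens, gelatins, elastin and many cell surface proteins, and most are made as proenzymes that must be activated. ADAMTS proteases carry thrombospondin repeats that anchor them in the matrix, where they trim proteoglycans, process procollagens or cut von Willebrand factor, while ADAMTS-like proteins have the same ancillary domains without a protease domain and bind fibrillin microfibrils. TIMPs and Reck hold these enzymes in check, and the balance of proteases and inhibitors is known for its part in alveolar wall breakdown in the lung and in matrix remodelling of the heart.

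Total RNA was sequenced from the whole lung and whole heart of 6 male 129S6/SvEvTac mice. The 3 wildtype (WT) mice and 3 Adam19 knockout (KO) mice each gave 1 lung and 1 heart library, so that 4 groups of 3 libraries were compared. The KO animals were adult homozygotes that lack Adam19 in the whole body, since exons of the gene had been replaced by a tdTomato reporter construct. WT and KO mice carried different identifier prefixes, so a difference between those prefixes and a difference between genotypes cannot be told apart.

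Gene values were on a log2 scale, and the summed estimated counts behind them ran from 17674788 to 28043361 per lung library and from 18392292 to 35862932 per heart library. Adam19 itself followed the labels, with values of 9.12 to 9.41 in WT lungs against 3.21 to 4.45 in KO lungs, and 9.17 to 10.27 in WT hearts against 6.01 to 6.67 in KO hearts. All 5 heart muscle markers were higher in heart and all 5 lung epithelial markers were higher in lung. The small RNA gene Rn7s1 took 2.10% to 34.0% of the estimated counts in the lung libraries and 2.70% to 11.8% in the heart libraries.

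The active site shows what separates the enzymes of the set from the rest. MMPs and ADAMTS proteases bind the catalytic zinc with histidines, and the codons for 2 of these, the catalytic glutamate and the residue that follows as the eighth codon were read from the coding sequences of GENCODE vM39 (GRCm39). The sites of 7 members that carry the results are printed 5′ to 3′ on the coding strand, with the 2 histidine codons, the glutamate codon and the eighth codon in capitals.
Mmp2: CATGAGttcggcCATgccatgGGG
Mmp14: CATGAGttggggCATgccctaGGC
Mmp15: CATGAGctgggcCATgccctgGGG
Mmp12: CATGAActtggcCATtccttgGGG
Adamts1: CATGAAttgggcCATgtgtttAAC
Adamts7: CACGAGctaggaCACagttttGGC
Adamts17: CATGAActgggcCACaacctgGGG
The MMP sites lay within 1 exon each, at chr8:93565907-93565930 (+) in exon 8 of Mmp2, chr14:54675084-54675107 (+) in exon 5 of Mmp14, chr8:96095213-96095236 (+) in exon 5 of Mmp15 and chr9:7352914-7352937 (+) in exon 6 of Mmp12. The ADAMTS sites were each split by an intron, at chr16:85596088-85596433 (-) over exons 3 and 4 of Adamts1, chr9:90061509-90062684 (+) over exons 7 and 8 of Adamts7 and chr7:66618646-66652212 (+) over exons 8 and 9 of Adamts17. Over the 7 sites, identity between pairs ran from 13 to 21 of 24 bases, and pairs within a family were not always closer than pairs across families. Mmp2 and Mmp15 shared 21, Mmp15 and Adamts17 shared 20, as did Mmp14 and Mmp15, while Adamts1 and Adamts7 shared 13.

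The zinc-binding codon pattern, with glycine or asparagine allowed as the eighth codon and a further histidine codon after it, was found in frame in all 23 MMPs and in 18 of 19 ADAMTS genes. It was found in 0 of 5 ADAMTS-like genes, 0 of 4 TIMPs and not in Reck. Over all 21594 protein-coding genes, 0.343% held it in their longest coding sequence. The eighth codon was glycine in all 23 MMPs and in 13 ADAMTS genes. It was asparagine in 5 ADAMTS genes, Adamts1, Adamts4, Adamts9, Adamts15 and Adamts20, which are all proteases known to cut proteoglycans such as aggrecan and versican. The eighth codon did not mark that group as a whole, since the aggrecanase Adamts5 had glycine and Adamts8 had neither.

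The set was not spread evenly over the genome, since 13 of the 52 genes lay on chromosome 9. Of these, 10 formed 1 run of MMP genes within 0.427 megabases, from Mmp13 to Mmp7. The only members listed at 0 in all 12 libraries, the collagenases Mmp1a and Mmp1b, the stromelysin Mmp10 and the enamel protease Mmp20, all belonged to this run. Of all members, 40 were above 0 in every library.

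The TIMPs together were the most abundant family of the set by group mean when levels were compared per length, mainly through Timp3. On the scale of estimated counts per kilobase of transcript, scaled between libraries as the gene values were, the 4 TIMPs together reached 5349 ± 1315 in WT lungs and 2912 ± 749 in WT hearts (mean ± SD over 3 libraries). All MMPs together reached 1926 ± 191 in WT lungs and 1884 ± 210 in WT hearts on this scale, all ADAMTS proteases 1978 ± 203 and 1163 ± 114, and Reck 251 ± 53.0 and 53.1 ± 3.94. TIMPs therefore stood above the MMPs in every group mean, and the MMP totals of the tissues differed by less than their spread. In heart WT replicate 3 the order was reversed, with MMPs at 2127 and TIMPs at 2107. The order did not hold gene by gene, since in WT hearts Mmp15 (895) was above Timp2 (773).

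Timp3, the TIMP that binds to the matrix and also inhibits ADAMTS proteases, made up 71.8% of the TIMP total in lung and 63.2% in heart. Timp2, which takes part with Mmp14 in the activation of proMMP2, made up 27.2% and 25.8%. Timp4, known for its expression in heart, made up 0.226% of the TIMP total in lung and 9.26% in heart, so it was the lowest of the 4 in lung and above Timp1 in heart. The plot of levels per transcript length gives the single libraries.

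**Figure D1:**
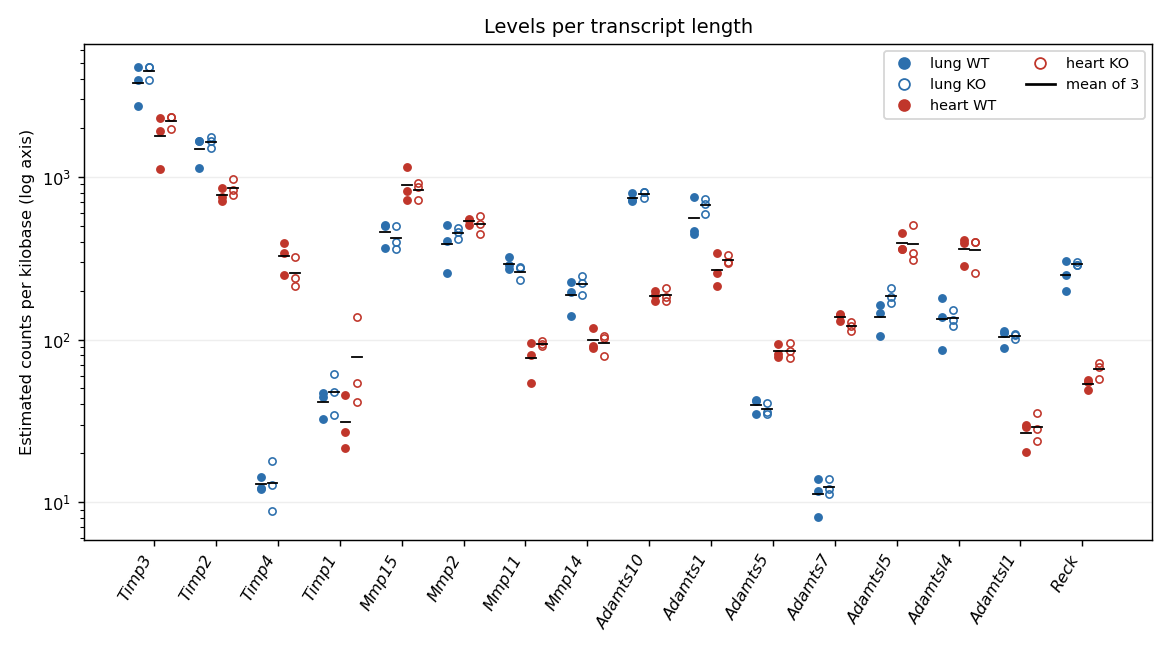
Estimated counts per kilobase (log axis) of 16 genes of the set, with 3 libraries as points and their mean as a bar in each of the groups lung WT, lung KO, heart WT and heart KO. Timp3 is the highest gene in 11 of 12 libraries, with Mmp15 above it (1144 against 1126) in heart WT replicate 3, and Timp4 and Adamts7 show the widest gap between lung and heart.

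Among the MMPs, the membrane-type Mmp15 and the gelatinase Mmp2 were the highest per length in both tissues. Mmp15 reached 456 ± 76.7 in WT lungs and 895 counts per kilobase in WT hearts, and Mmp2 388 ± 125 and 534. In WT lungs these neighbours in the order did not differ beyond their spread. Among the ADAMTS proteases the same pair was highest in both tissues. Adamts10, which binds fibrillin, was at 739 ± 45.1 in WT lungs against 186 in WT hearts, and Adamts1, a versican-cleaving protease, was at 556 ± 172 and 269. The group means put Adamts10 first in lung and Adamts1 first in heart, but in lung WT replicate 2 Adamts1 was above Adamts10 (754 against 720.0). These levels sum all listed transcripts, 15 for Adamts10. In lung its main coding form held a mean of 31.7% of its estimated counts. A form marked for nonsense-mediated decay held 29.3% and a form retaining an intron 18.1%. For Adamts1 the main coding form held 93.7%. The order by coding forms alone was not computed. Adamtsl5 and Adamtsl4 were the highest ADAMTS-like genes in heart, at 392 ± 54.6 and 361 counts per kilobase in WT hearts. In WT lungs Adamtsl2 (140.3 ± 27.8), Adamtsl5 (137.6 ± 30.1) and Adamtsl4 (134.5 ± 46.8) did not differ beyond their spread. For Adamtsl5 in WT hearts, a form retaining an intron, ENSMUST00000124789.8, had a mean log2 value of 9.55. Its coding form ENSMUST00000095446.10 had a mean of 8.51.

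Lung and heart of WT mice were compared first, to set out where each enzyme and inhibitor is made. Of the 52 genes, 43 reached a value of 3.46 (10 estimated counts) in at least 3 of 12 libraries and were tested, and the other 9 were not. A gene was called when its adjusted p was under 0.05 (limma, Benjamini-Hochberg over 17666 genes), its fold was at least 1.5 and the higher group mean was at least 6. By this rule 27 members were called, against 49.4% of all genes in this comparison. In WT lung 18 were higher than in WT heart, beside 29.3% of all genes, and 9 were lower, beside 20.1%. The median log2 difference of the 43 genes was 0.89, beside 0.32 for all genes tested. The share of the set called was therefore of the order of the background, and the members are described one by one. In whole organs, fewer cells of a type and less RNA per cell cannot be told apart.

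The plot of members by library shows that the differences ran in both directions in every family with more than 1 member.

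**Figure D2:**
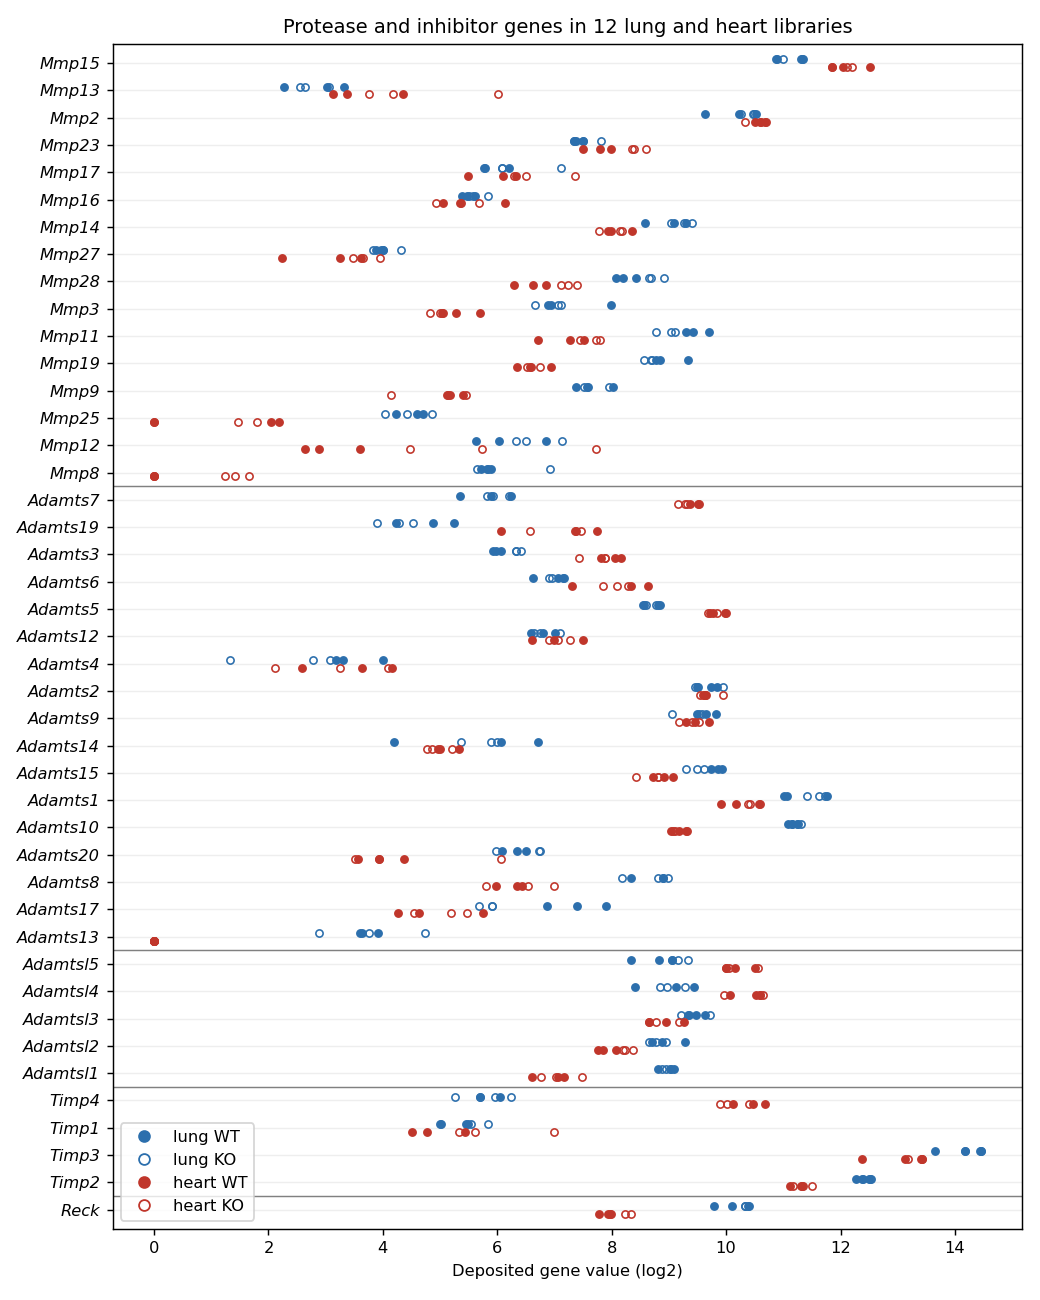
Deposited gene values (log2) of the 43 tested genes in 12 libraries, with lung in blue, heart in red, WT filled and KO open, ordered within each family by the WT difference between lung and heart. Mmp8 and Adamts13 lie at 0 in WT hearts, and Timp4 and Adamts7 are the genes furthest to the heart side.

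Among the inhibitors, Timp4 had values of 5.69, 6.05 and 5.70 in WT lungs and 10.47, 10.68 and 10.12 in WT hearts. It was 24.5-fold lower in lung, a log2 difference of -4.61 ± 0.25 (SE, adjusted p = 7.71e-09), which was the widest gap between the tissues of any member that passed the rule. Beside it, the summed heart muscle markers were at 20.69 to 20.99 in WT hearts and 13.78 to 14.52 in WT lungs on the log2 scale, and their part in the Timp4 result was not tested.

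The main inhibitors went the other way. Timp3 was at 14.18, 14.45 and 13.65 in WT lungs and 13.13, 13.41 and 12.37 in WT hearts, 2.18-fold higher in lung (1.12 ± 0.26, adjusted p = 0.00195). Timp2 was at 12.40, 12.49 and 12.27 in WT lungs and 11.30, 11.32 and 11.12 in WT hearts, 2.2-fold higher in lung (1.14 ± 0.12, adjusted p = 3.99e-06). Reck, a membrane-anchored inhibitor of several MMPs, was at 10.11, 10.41 and 9.79 against 7.93, 7.98 and 7.77, 4.63-fold higher in lung (2.21 ± 0.16, adjusted p = 1.02e-07). The WT lungs and hearts did not overlap for any of these genes. Timp1, the TIMP most often induced by injury, had a log2 difference of 0.41 ± 0.43 and did not pass (adjusted p = 0.411).

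Of 16 MMPs tested, 7 were higher in WT lung and 1 was lower. Mmp12, the macrophage elastase, was at 6.03, 5.62 and 6.85 in WT lungs and 2.88, 3.59 and 2.64 in WT hearts, 8.75-fold higher in lung (3.13 ± 0.65, adjusted p = 0.000916). Without lung WT replicate 3 the difference was 2.79 and the higher group mean fell short of 6, so that call rested on 1 library. The 5 macrophage markers were all higher in lung too, with summed values of 14.19 to 14.97 in WT lungs and 10.60 to 11.08 in WT hearts, and their part in the Mmp12 result was not tested.

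Mmp9, a gelatinase stored in neutrophil granules, was at 8.02, 7.58 and 7.38 in WT lungs and 5.12, 5.40 and 5.17 in WT hearts, 5.39-fold higher in lung (2.43 ± 0.32, adjusted p = 2.15e-05). Mmp8, the neutrophil collagenase, was at 5.88, 5.72 and 5.85 in WT lungs and was listed at 0 in all 3 WT hearts. Its higher group mean was 5.82, just under the minimum of 6, so it was not called in WT mice despite an adjusted p of 5.28e-08. Mmp25, the membrane-type enzyme of leukocytes, had a higher group mean of 4.51 and was not called either. The summed neutrophil markers were at 10.02 to 10.12 in WT lungs and 2.77 to 3.94 in WT hearts, and their part in these results was not tested.

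Mmp19 was at 8.77, 8.84 and 9.34 in WT lungs and 6.93, 6.57 and 6.35 in WT hearts, 5.14-fold higher in lung (2.36 ± 0.20, adjusted p = 3.92e-07). Mmp11, a stromelysin known from stromal fibroblasts, was at 9.30, 9.70 and 9.42 against 7.27, 6.71 and 7.52, 4.96-fold higher in lung (2.31 ± 0.21, adjusted p = 7.65e-07). Mmp28, an epithelial MMP, was at 8.08, 8.20 and 8.43 against 6.85, 6.29 and 6.63, 3.14-fold higher in lung (1.65 ± 0.19, adjusted p = 5.36e-06). The other called MMPs were the stromelysin Mmp3 and Mmp14, the membrane-type collagenase that activates proMMP2. Mmp14 was at 9.29, 9.08 and 8.58 in WT lungs and 7.98, 7.94 and 8.35 in WT hearts, 1.86-fold higher in lung (0.89 ± 0.21, adjusted p = 0.00185).

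Mmp15 was the 1 MMP called higher in heart. Its values were 11.34, 11.32 and 10.88 in WT lungs and 11.86, 12.03 and 12.52 in WT hearts (-0.96 ± 0.19, adjusted p = 0.000779). With limma-voom on the estimated counts, which moved the median of all genes from 0.32 to 0.75, Mmp15 was at -0.53 and was not called. Mmp2 was at 10.52, 10.22 and 9.62 against 10.61, 10.68 and 10.51, a difference of -0.48 ± 0.19 with an adjusted p of 0.0438 that fell short of the fold of 1.5. Of the axis in which Mmp14 and Timp2 activate proMMP2, the activators were thus called higher in lung and the substrate enzyme was not called.

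Of 17 ADAMTS proteases tested, 6 were higher in WT lung and 5 were lower. Adamts7, a protease of cartilage oligomeric matrix protein with a known place in vascular smooth muscle, was at 6.24, 5.90 and 5.35 in WT lungs and 9.53, 9.36 and 9.50 in WT hearts, 12.4-fold lower in lung (-3.64 ± 0.22, adjusted p = 1.47e-08). Adamts19, a protease linked to heart valve development, was at 5.24, 4.22 and 4.87 against 7.37, 7.75 and 6.06, 4.86-fold lower in lung (-2.28 ± 0.44, adjusted p = 0.000491). The other ADAMTS genes called lower in lung were the procollagen N-proteinase Adamts3 (-2.02 ± 0.19), Adamts6 (-1.15 ± 0.30) and the aggrecanase Adamts5 (-1.10 ± 0.14).

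On the lung side stood Adamts17, a fibrillin-associated protease, at 7.39, 6.87 and 7.89 in WT lungs and 4.63, 5.74 and 4.26 in WT hearts, 5.69-fold higher in lung (2.51 ± 0.40, adjusted p = 0.000113). Adamts8, a protease known for its high level in lung, was at 8.90, 8.89 and 8.33 against 6.44, 6.34 and 5.99, 5.49-fold higher in lung (2.46 ± 0.31, adjusted p = 1.41e-05). Adamts20, a versican-cleaving protease, was at 6.34, 6.08 and 6.51 against 4.36, 3.56 and 3.92, 5.14-fold higher in lung (2.36 ± 0.54, adjusted p = 0.00193). Its value from summed transcripts was 1.35 and was not called, since the higher group mean was then under 6.

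The ADAMTS genes highest per length over all listed transcripts were higher in lung as well. Adamts10 was at 11.24, 11.08 and 11.16 in WT lungs and 9.18, 9.30 and 9.04 in WT hearts, 3.97-fold higher in lung (1.99 ± 0.12, adjusted p = 1.72e-08). Adamts1 was at 11.06, 11.76 and 11.004 against 9.91, 10.58 and 10.18, 2.07-fold higher in lung (1.05 ± 0.21, adjusted p = 0.000697). Adamts13, which cuts von Willebrand factor, was low in lung (3.59 to 3.91 in WT) and listed at 0 in all 6 hearts. Its substrate gene Vwf was called higher in WT lung.

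Neighbouring genes did not always share a direction. Adamts1 and Adamts5 lie 53.1 kilobases apart on chromosome 16, and Adamts1 was called higher in lung while Adamts5 was called higher in heart. Adamts15 and Adamts8 lie 19.9 kilobases apart on chromosome 9, and both were called higher in lung. In the run of 10 MMP genes on chromosome 9, 2 were called higher in WT lung, Mmp3 and Mmp12, and 0 were called higher in heart.

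Of the 5 ADAMTS-like genes, 2 were called higher in WT lung and 2 were called lower. Adamtsl1, also known as punctin, was at 9.03, 9.09 and 8.82 in WT lungs and 7.07, 7.16 and 6.60 in WT hearts, 4.10-fold higher in lung (2.04 ± 0.21, adjusted p = 2.14e-06), and Adamtsl2, which binds latent TGF-β binding protein, was the other (1.07 ± 0.17). Adamtsl4, known for its role in the lens zonule, was at 9.13, 9.44 and 8.40 against 10.07, 10.59 and 10.52 (-1.40 ± 0.26, adjusted p = 0.000431). Adamtsl5 was at 8.83, 9.06 and 8.33 against 10.16, 9.99 and 10.50 (-1.48 ± 0.21, adjusted p = 4.41e-05).

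The transcripts of the members gave the same kind of split. Of 101 member transcripts tested between WT lung and WT heart, 38 were called, against 26.9% of all transcripts, 24 higher in lung beside 14.6% of all transcripts and 14 lower beside 12.3%. Both listed transcripts of Timp4 were called lower in lung. The main form ENSMUST00000032462.9 was at 5.59 to 5.75 in WT lungs and 9.77 to 10.74 in WT hearts (-4.66), and the shorter form ENSMUST00000205131.2 was at 2.25 to 3.24 and 6.82 to 7.06 (-4.32).

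The lists of partner genes held calls in both directions in WT mice. Of 6 tested genes of plasminogen activation, which turns on several proMMPs, 2 were higher in lung and 0 lower, Plat (0.81 ± 0.17) and the urokinase receptor Plaur (3.55 ± 0.21). Of the 4 proprotein convertases, which cleave the propeptides of membrane-type MMPs and ADAMTS proteases, Pcsk5 (2.08 ± 0.18) and Pcsk7 (0.74 ± 0.15) were higher in lung and Furin (-1.07 ± 0.36) and Pcsk6 (-1.88 ± 0.19) were lower. Among the astacin procollagen proteases and their enhancers, 3 of 5 were higher in lung, Tll1, Pcolce and Pcolce2 (2.97 ± 0.12), and 0 were lower.

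Substrates were split as well. Of 8 proteoglycan genes, Bcan and Bgn were higher in lung, and the versican gene Vcan (-2.23 ± 0.22) and the decorin gene Dcn (-2.28 ± 0.20) were lower. Of 7 collagen and plasma substrates 1, Vwf, was higher in lung and 0 were lower. Of 8 fibrillin and related genes, Ltbp2 (2.95 ± 0.39) and Thsd4 (1.67 ± 0.19) were higher in lung and Papln (-2.88 ± 0.29) was lower. Of 9 other inhibitors and clearance receptors 4 were higher and 2 lower, with Slpi, a serine protease inhibitor of airways, at 7.11 ± 0.64. Of 4 tested cathepsins 2 were higher in lung, with Ctss at 4.15 ± 0.20, and 1, Ctsb, was lower (-0.91 ± 0.13).

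The same comparison in KO mice called 26 members, against 49.6% of all genes, 16 higher in lung beside 28.7% of all genes and 10 lower beside 20.9%. Both lists shared 24 genes with the same direction, 88.9% of the WT list and 92.3% of the KO list, and 39 of 43 genes had the same sign. With limma-voom on the estimated counts the KO split was 21 higher and 5 lower, with the median of all genes at 0.97 in place of 0.29. Called in WT mice only were Adamts17, Adamtsl2 and Mmp12, and called in KO mice only were Mmp23 and Mmp8. None of these 5 genes passed the test of the difference between the genotypes itself, given with the interaction. The KO call of Mmp8 rested on 1 library. Its KO lungs were at 5.64, 5.81 and 6.92, and their mean of 6.12 passed the minimum of 6 only with replicate 3. The plot of lung against heart in WT and KO mice places all 43 genes.

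**Figure D3:**
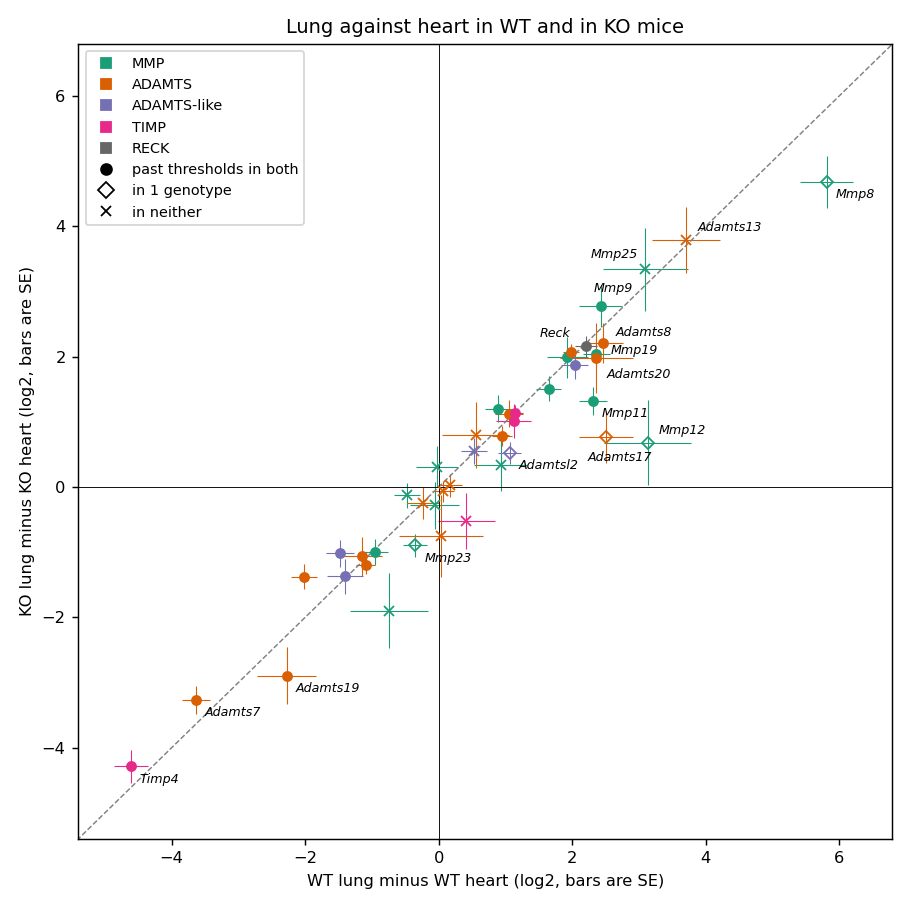
Log2 difference of lung minus heart in WT (horizontal) and KO mice (vertical) for 43 genes, with bars of 1 SE, the dashed line of equal differences and symbols for genes past the thresholds in both genotypes, in 1 or in neither. Adamts17 and Mmp12 lie furthest below the line among the labelled genes called in WT mice, at 2.51 and 3.13 in WT and 0.76 and 0.68 in KO mice.

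WT and KO mice were then compared within each tissue, to ask whether loss of Adam19 goes with a change in other metalloproteinases or their inhibitors. In lung 41 members were tested and 0 passed the thresholds (limma), against 0.0665% of all 16551 genes. At an unadjusted p under 0.05 there were 4 members, 9.76% of those tested beside 5.93% of all genes. In 6 members the WT and KO lungs did not overlap, 2 higher and 4 lower in KO, and this was so for 12.8% of all genes. The log2 differences ran from -1.55 to 0.52 with a median SE of 0.22, and 40 of 41 lay within a fold of 1.5. At this spread, with 3 libraries per group, changes under that fold were hardly detectable. Larger changes could also miss the thresholds, as Adamts17 did at 2.93-fold.

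Adamts17 had the smallest p in lung. Its values were 7.39, 6.87 and 7.89 in WT and 5.91, 5.90 and 5.68 in KO lungs, so that all KO lungs lay below all WT lungs, by -1.55 ± 0.29 (unadjusted p = 0.000464, adjusted p = 0.320). From summed transcripts the difference was -1.06. Of its transcripts, the main coding form ENSMUST00000098382.10 differed by -0.90 ± 0.40 and overlapped between the groups. A form with no defined coding sequence, ENSMUST00000147880.8, was at 3.83 to 4.46 in WT lungs and at 0, 2.79 and 0 in KO lungs.

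Mmp28 was at 8.08, 8.20 and 8.43 in WT and 8.66, 8.92 and 8.69 in KO lungs, a difference of 0.52 ± 0.17 (adjusted p = 0.806). Mmp11 was at 9.30, 9.70 and 9.42 in WT and 9.03, 9.11 and 8.78 in KO lungs, a difference of -0.50 ± 0.18 (adjusted p = 0.806), and summed transcripts gave 0.12, the opposite sign. Its transcript ENSMUST00000132869.2, marked for nonsense-mediated decay, was at 3.66, 4.91 and 4.41 in WT lungs and at 0 in all KO lungs, while its main coding transcript differed by 0.22 ± 0.16. The direction of Mmp11 in lung therefore depended on how transcripts were combined.

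The inhibitors and the main matrix enzymes stayed close to WT in lung. The log2 differences were 0.26 for Timp3, 0.08 for Timp2, 0.25 for Mmp14, 0.29 for Mmp2 and 0.31 for Adamts1, with adjusted p values from 0.841 to 0.921. Without lung WT replicate 3 these differences were 0.042, 0.025, 0.048, 0.036 and 0.18, in the same order. The summed TIMP level per kilobase was 6174 ± 389 in KO and 5349 ± 1315 in WT lungs, and the summed MMP level was 1976 ± 131 and 1926 ± 191, both within the spread of the libraries.

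In heart 40 members were tested and 0 passed the thresholds (limma), against 0.0850% of all 15303 genes. At an unadjusted p under 0.05 there were 5 members, 12.5% of those tested beside 7.46% of all genes. In 6 members the groups did not overlap, 5 higher and 1 lower in KO, and this was so for 13.0% of all genes. The log2 differences ran from -0.38 to 2.94 with a median SE of 0.22, and 33 of 40 lay within a fold of 1.5. Beside these values, 4 of 5 smooth muscle markers did not overlap and were higher in KO hearts, 0 of them called. The log2 differences of the 5 ran from 0.10 to 1.38, with a median of 0.81. Their summed values were 15.84 to 16.02 in KO and 15.46 to 15.90 in WT, mostly from Des, the marker that overlapped. Their part in the heart values was not tested.

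Mmp12 had the smallest p in heart, at 2.88, 3.59 and 2.64 in WT and 4.48, 7.72 and 5.74 in KO hearts (2.94 ± 0.74, adjusted p = 0.434). All KO hearts were above all WT hearts, but the KO hearts spread over more than 3 log2 units, and without heart KO replicate 2 the difference was 2.07. The highest Mmp12 transcript in KO hearts was ENSMUST00000127722.2, marked for nonsense-mediated decay, at 4.33, 7.40 and 5.52. The coding form ENSMUST00000065079.6 was at 1.745, 5.40 and 3.23. The coding form whose site is printed above, ENSMUST00000120655.8, was at 0 in all 3 KO hearts. The summed macrophage markers were at 10.81 to 10.96 in KO and 10.60 to 11.08 in WT hearts, and their part in the Mmp12 values was not tested. Mmp23, a small MMP anchored in the membrane by its propeptide, was at 7.98, 7.50 and 7.79 in WT and 8.60, 8.35 and 8.39 in KO hearts (0.69 ± 0.17, adjusted p = 0.436). Mmp28 was at 6.85, 6.29 and 6.63 in WT and 7.39, 7.23 and 7.11 in KO hearts (0.66 ± 0.21, adjusted p = 0.599).

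**Figure D4:**
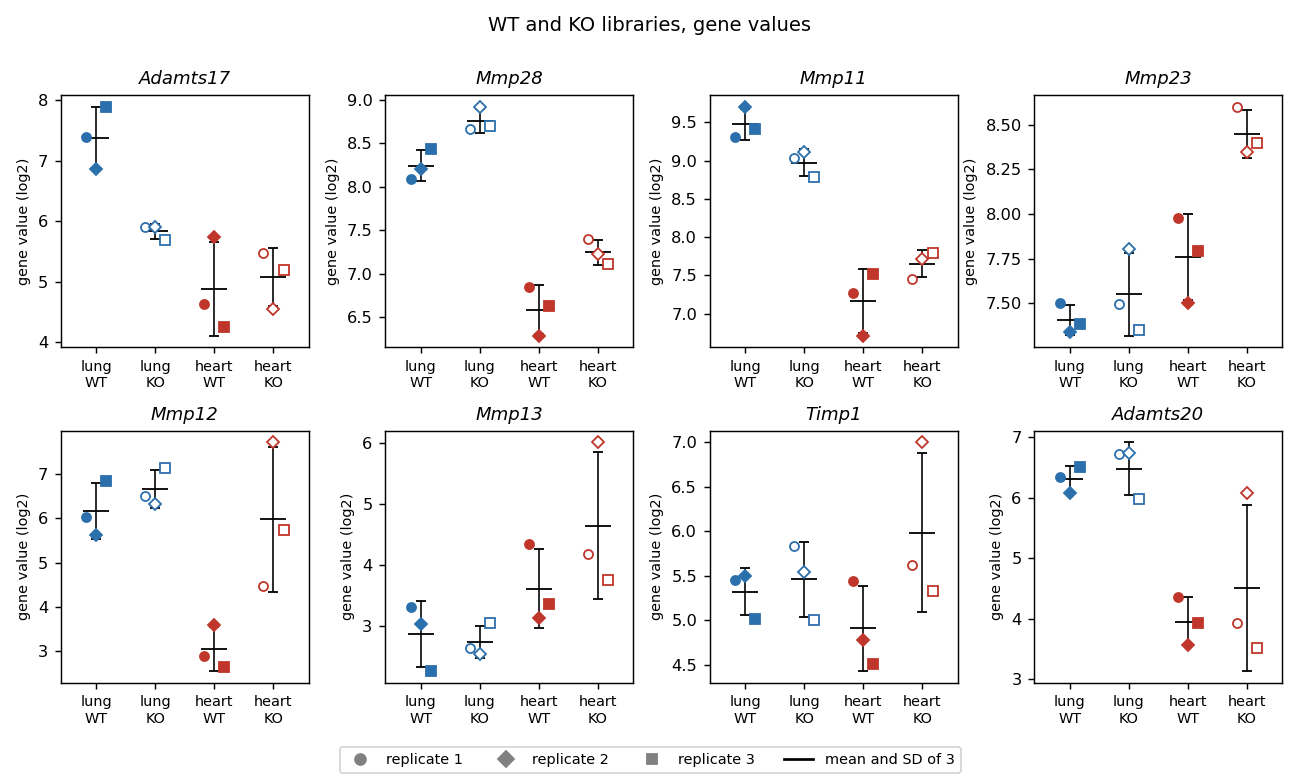
Gene values (log2) of 8 members in the 4 groups, with WT filled, KO open, the 3 replicates as circle, diamond and square, and the mean and SD of 3. Mmp28 is the only one of the 8 whose KO libraries lie above its WT libraries in both tissues, and heart KO replicate 2 (diamond) stands above all other hearts for Mmp12, Mmp13, Timp1 and Adamts20.

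One heart library carried much of the spread. Heart KO replicate 2 was at least 1 log2 unit above the next highest heart for 4 of 40 tested members, Mmp12, Mmp13, Timp1 and Adamts20, and for 0.209% of all genes, 32 of 15303. Each of the other 5 heart libraries stood so for 0 members and for 14 to 57 genes. The 4 genes were chosen after their values were seen, and the tests above include this library.

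Mmp13, a collagenase of bone and cartilage, was at 6.01 in that heart and at 3.13 to 4.35 in the other 5. Timp1 was at 6.997 in that heart against 4.51 to 5.62, and Adamts20 at 6.07 against 3.50 to 4.36. Among the partner lists, the latent TGF-β binding protein Ltbp2 was at 10.18 against 7.08 to 8.67 and the aggrecan gene Acan at 7.59 against 3.67 to 5.92. The same heart thus stood high for proteases, for an inhibitor and for a substrate at once. Its summed cartilage markers, a list that includes Acan, were at 9.75 against 7.78 to 9.30 in the other hearts. On that list Comp was also highest in this heart, at 9.34. Col2a1 was at 4.30 against 4.96 in heart KO replicate 3, Col9a1 at 1.49 against 2.50 in heart WT replicate 1, and Matn1 at 0. The macrophage markers of this heart were within the range of the others, and the part of either list in these values was not tested. In the lung of the same mouse Mmp12 was at 6.33, Mmp13 at 2.55, Timp1 at 5.54 and Adamts20 at 6.74, and 0 members were at least 1 log2 unit above the next highest lung. That lung did stand apart for Acan, at 7.645 against at most 6.052 in the other lungs. The summed cartilage markers, which include Acan, were at 8.41 in that lung against 4.07 to 7.06. Col2a1, Comp and Matn1 of that list were highest in that lung too, while Col9a1 was at 3.22 against 3.32 in lung WT replicate 1.

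One lung library stood out for a member in the same way. Mmp8 was at 6.92 in lung KO replicate 3 and at 5.64 to 5.88 in the other 5 lungs. The summed neutrophil markers were at 10.99 in that lung and 10.01 to 10.12 in the others, and their part in the Mmp8 value was not tested. Over all genes, lung WT replicate 3 stood furthest apart. It was at least 1 log2 unit above the next highest lung for 189 of 16551 genes (1.14%) and for 0 members. The other lungs stood so for 6 to 44 genes.

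Mmp28 was the 1 member whose KO libraries lay above all WT libraries in both tissues, among 38 tested in both, and 0 members did so in opposite directions. Of all genes, 12.8% did not overlap in lung and 13.0% in heart. The share of all genes that did so in both tissues was not counted, so the count of 1 is not read as a result about the set. The lung and the heart came from the same 6 mice. The Mmp28 transcripts were looked at after these values were seen. The coding form ENSMUST00000021020.13 was at 0, 2.08 and 0 in WT lungs and 5.21, 3.82 and 4.55 in KO lungs, and at 0 in all WT hearts and 3.85, 4.05 and 3.81 in KO hearts. The main form ENSMUST00000103209.10 was at 7.55, 7.39 and 7.80 in WT and 8.16, 8.47 and 8.23 in KO lungs, while in heart it overlapped, at 6.57, 5.72 and 6.03 in WT and 6.92, 6.58 and 6.50 in KO. The third form, ENSMUST00000108137.9, overlapped between the genotypes in both tissues.

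Over all transcripts the Mmp28 form listed mostly in KO mice differed by 3.83 ± 1.03 in lung (adjusted p = 0.744, limma) and 3.90 ± 1.07 in heart (adjusted p = 0.728), so neither passed. In both tissues only the KO libraries of this form reached the minimum value for testing, 3.46, while its WT libraries were at 0 or 2.08. The form thus entered each test through its higher group alone, and the size of these differences is not read as a result. Of 87 member transcripts tested in lung and 75 in heart, 0 passed the thresholds, against 0.100% and 0.0625% of all transcripts, while 10 and 5 had an unadjusted p under 0.05, beside 6.08% and 5.72% of all transcripts. The forms of 1 gene share most of their sequence, so their separate values are estimates of how shared reads divide.

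**Figure D5:**
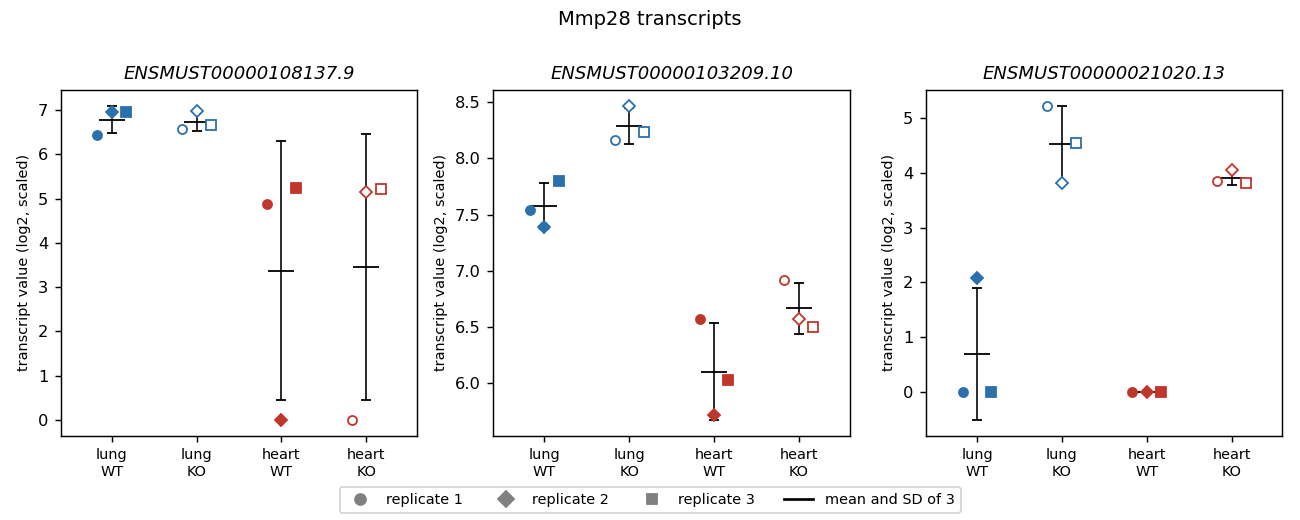
Values of 3 Mmp28 transcripts (log2, scaled between libraries as the gene values were) in the 4 groups, with WT filled, KO open and the mean and SD of 3. The form ENSMUST00000021020.13 is at 0 in 5 of 6 WT libraries and at 3.81 to 5.21 in all 6 KO libraries.

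Mmp28, Adamts2 and Timp2 are the members on chromosome 11, which also carries Adam19. Adamts2, a procollagen N-proteinase, lies nearest, 4.46 megabases from Adam19, at chr11:50492787-50698400 (GRCm39). Its values were 9.74, 9.84 and 9.48 in WT and 9.95, 9.45 and 9.50 in KO lungs, and 9.63, 9.65 and 9.60 in WT and 9.94, 9.63 and 9.54 in KO hearts, so that the genotypes overlapped in both tissues. Mmp28 lies 37.3 megabases away at chr11:83330646-83353986. Timp2 lies 72.2 megabases away, with log2 differences of 0.08 in lung and 0.09 in heart.

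Whether the KO difference itself varied between lung and heart was tested as an interaction over all 12 libraries. Of 43 members 0 passed (limma), against 0.00566% of all genes, and 5 had an unadjusted p under 0.05, 11.6% of those tested beside 7.88% of all genes. The smallest p values were those of Mmp11, with a difference of -0.50 in lung and 0.49 in heart (interaction -0.99 ± 0.30, adjusted p = 0.517), Adamts17 (-1.75 ± 0.57, adjusted p = 0.543) and Mmp12 (-2.45 ± 0.92, adjusted p = 0.599). Over the alternatives run, the Mmp11 interaction ranged from -1.17 to -0.081. Adamtsl2, Mmp23 and Mmp8, which like Adamts17 and Mmp12 were called between tissues in 1 genotype only, had adjusted p values of 0.634, 0.634 and 0.645.

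Partner genes gave 0 calls between genotypes in either tissue. In lung 0 of 48 tested and in heart 0 of 47 tested passed the thresholds.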

How the data were processed

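Total RNA libraries (Illumina TruSeq stranded) of 6 lungs and 6 hearts were used. The authors quantified reads against GENCODE vM33 transcripts (mm39) with Salmon, and deposited log2 gene values and log2 transcript values (log2 of the estimated count plus 1). STAR, cutadapt and limma 3.42.2 are named in the submitters' processing notes. Single-transcript genes showed that gene values carry a constant per library (-0.63 to 0.80), whose method is not given in the sources used here; it was applied to transcripts, and the estimated counts were divided by transcript length for levels per kilobase. No whole-number counts were used, so count tests were not run as the main test.

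Groups came from the labels. limma 3.58.1 (R 4.3.3) with a mean-variance trend was fitted to the log2 values, 6 libraries for WT against KO within a tissue and all 12 for lung against heart and the interaction. Genes reaching log2(1 + 10) = 3.46 in at least 3 libraries were tested, and calls needed adjusted p under 0.05, fold of at least 1.5 and a higher group mean of at least 6. Low values carry more counting error, which these files do not give per gene. Scripts were tested on simulated data. The alternatives were other filters, a pseudocount of 10, limma-voom, summed transcripts, no trend, 2 other scalings, leaving out each library, and the mouse as a block.

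Named genes were the markers Mmp2, Mmp14, Timp2, Timp3 and Adamts1, the 3 smallest p values per genotype comparison, members on the chromosome of Adam19, the 12 widest called tissue differences without overlap and the 2 highest per length of each family. Others are named as chosen later or as counts. The members and lists were chosen with earlier results of these data known. The marker lists not given beside a result (adipocytes, red blood cells, mesothelium, skeletal muscle, lymphocytes, proliferation, fibroblasts) had 0 genes called between genotypes in either tissue. Replicate numbers of lung and heart name the same mouse by its identifier. The correlation of their deviations ran from -0.07 to 0.14. Coordinates and coding sequences are from GENCODE vM39 (GRCm39), the build of the files. The authors marked 35 of the 52 genes as detected, which was not used as a filter.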

Additional observations from a re-analysis of the deposited data

How the results depend on the processing

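The count of members called was 0 between genotypes in lung, in heart and in the interaction under all alternatives run, 26 to 29 between WT lung and WT heart and 25 to 28 between KO lung and KO heart. With the mouse as a replicate block the counts were 27 and 26, as without it, and 0 for the interaction, and the block changed no other count; WT and KO mice share only a number, so no block was fitted between genotypes within a tissue.

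Scaling moved directions. limma-voom on the estimated counts put the median of all genes at 0.75 for WT lung against heart (0.32 in the deposited values), 0.97 for KO (0.29) and 0.30 for KO against WT lung (0.01). Under it Adamts2 was at 0.23 between KO and WT lungs and 0.61 between KO lung and heart, Mmp2 at 0.55 between KO lung and heart and Mmp23 at 0.058 between WT lung and heart, each with the sign turned, and Mmp15 (-0.53 in WT, -0.32 in KO), Adamtsl5 (-0.34 in KO) and Mmp23 (-0.20 in KO) lost their calls. With medians set equal, Adamts2 was at -0.19 between WT lung and heart, and Mmp2 (-0.73) and Mmp23 were called. Quantile normalization put Adamts17 at -0.091 between KO lung and heart and Adamts20 at 1.21, no longer called. Summed transcripts turned Mmp11 in KO against WT lung to 0.12. The cause of these changes was not tested.

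Leaving out single libraries turned signs where values lay near 0. The ranges were -0.21 to 0.037 for Adamts2 in KO against WT lung, and in KO against WT heart -0.14 to 0.036 for Mmp2, -0.13 to 0.074 for Mmp14, -0.12 to 0.63 for Adamts17 and -0.043 to 0.16 for Adamts2. Between WT lung and heart Adamts2 ran from -0.015 to 0.16, and between KO lung and heart from -0.23 to 0.049. Mmp12 ran from -0.073 (without heart KO replicate 1) to 1.55 (without heart KO replicate 2) between KO lung and heart, and was called at the latter. Depth limits low members such as Mmp12, Mmp13 and Adamts13 most.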
